A study of Homo sapiens with 4 samples.

Results

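The TCEA genes encode transcription elongation factor A, also called TFIIS or SII, and the human members TCEA1, TCEA2 and TCEA3 were measured in COLO-320DM and 320-IWR cells. The members were all probe sets annotated to exactly 1 of these symbols, 8 of 54613 probe sets that were not controls. TCEA1 and TCEA2 each had 3 probe sets and TCEA3 had 2. COLO-320DM is an established human colorectal cancer cell line. 320-IWR is the subline that was derived from it by continuous culture with IWR-1, an inhibitor of tankyrase, until the cells were resistant. No agent other than IWR-1 and no genetic change is named for either line, and the presence of IWR-1 at harvest is not given in the sources used here. 320-IWR is a single derived line, so a difference between the lines may belong to this subline. Total RNA of each line was hybridised to 2 GeneChip Human Genome U133 Plus 2.0 arrays, 4 arrays in all. Nothing says that the replicates were separate cultures, so spreads and p-values reflect these arrays, which may be technical.

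RNA polymerase II can slide backwards on its template, and the 3′ end of the transcript then leaves the active site. TFIIS reaches into the polymerase and makes it cleave the displaced RNA, so that elongation resumes. TCEA1 is the broadly expressed form, TCEA2 is known as the form enriched in testis, and TCEA3 is restricted to fewer tissues, heart and skeletal muscle among them. RNA of a bulk culture cannot tell fewer expressing cells from less RNA per cell. An intensity is compared only within a probe set, since probe sets differ in how brightly they report their transcript.

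Intensities are RMA values on a linear scale, and the median of the deposited intensities lay between 41.1 and 41.9 on all 4 arrays. No detection calls were used, so the distance of low values above background is unknown. CDX2, a transcription factor of the intestine, was bright in both lines (2723 to 3403). The intensities of the epithelial surface genes EPCAM and CDH1 were low. EPCAM read 23.5 and 35.1 in COLO-320DM cells and 13.5 and 18.1 in 320-IWR cells (log2 difference -0.88, limma adjusted p = 0.356). CDH1 read between 16.2 and 18.8 over the 4 arrays. Markers of leukocytes, fibroblasts and endothelium had median log2 differences between -0.01 and 0.07, and limma called 0 of the 14 measured (0 at an unadjusted p under 0.05). Of 10 markers of colon epithelium and neuroendocrine cells, the keratin genes KRT8 and KRT18 fell (log2 differences -2.26 and -1.67) and KRT20 rose (1.78). These keratin genes were the called ones, where 0.592% of all genes were called. An unadjusted limma p under 0.05 was reached by 5 of the 10 (50%), against 12.3% of all genes. ENO2 was also lower (-1.12, limma adjusted p = 0.282), and 5 of the 10 had a higher mean in 320-IWR cells. The part of cell state in the TCEA values was not tested.

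TCEA3 was the TCEA gene with the large difference between the lines. In its brighter probe set, 226388_at, both COLO-320DM arrays gave an intensity of 597, while the 320-IWR arrays gave 26.5 and 22.1. Both COLO-320DM arrays thus lay far above both 320-IWR arrays, and the closest arrays of the 2 lines were 22.5-fold apart. The mean of the parental cells was 597 ± 0 and that of 320-IWR cells 24.3 ± 3.11 (SD, n = 2 each). The log2 difference was -4.63 with a standard error of 0.14, which is 24.7-fold lower. The 320-IWR values are dim, and with 16 added to each intensity the fold was 15.2. The SD of 0 reflects the same deposited value on both COLO-320DM arrays, which was also the case for 0.602% of all probe sets in this line. The 320-IWR arrays were not identical, with a gap of -0.26 on the log2 scale from replicate 1 to replicate 2. Between same-numbered arrays the fold was 22.5 and 27.0. The difference ranked 3 from the lowest of all 54613 probe sets, of which 742 were at least 2-fold lower and 320 at least 2-fold higher in 320-IWR cells. These values chose the family for description, so no p-value is given for any TCEA probe set.

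The dimmer TCEA3 probe set, 241976_at, had the same direction but a much smaller difference. The COLO-320DM arrays gave 58.8 and 57.3, and the 320-IWR arrays gave 40.3 and 34.1. The lines did not overlap, and the closest arrays were 1.42-fold apart. The means were 58.0 ± 1.01 and 37.2 ± 4.41 (SD, n = 2 each), a log2 difference of -0.65 (standard error 0.14), or 1.57-fold lower. The 2 TCEA3 probe sets therefore ran the same way in both same-numbered pairs, but the size of the difference depended on the probe set. The annotation supplied with the array pairs 241976_at with a single sequence record and gives 226388_at no record, so which part of the transcript each probe set reads was not resolved here.

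TCEA1, the broadly expressed form, had nearly equal intensities in the lines. Its brightest probe set, 216241_s_at, read 2296 and 2483 in the parental cells and 2271 and 2454 in 320-IWR cells. The arrays of the lines interleaved, and replicate 2 was the brighter array in both lines. The log2 difference was -0.02 (standard error 0.13), and the gap between replicates was 0.11 in each line. The probe set 1566207_at read 62.8 and 61.4 in COLO-320DM cells and 64.8 and 56.2 in 320-IWR cells. The probe set 1566208_at read 17.3 and 14.4 in COLO-320DM cells and 18.4 and 13.4 in 320-IWR cells. Both COLO-320DM values fell between the 320-IWR values in each of these dim probe sets, with log2 differences of -0.04 and -0.01 (standard errors 0.13 and 0.20).

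TCEA2 gave 3 probe sets with different directions, and none differed by as much as 1.5-fold. The brightest, 203919_at, read 354 and 249 in the parental cells and 269 and 181 in 320-IWR cells. The lowest COLO-320DM value lay below the highest 320-IWR value, so the lines overlapped. The means were 301 ± 74.4 and 225 ± 61.7 (SD, n = 2 each), with a log2 difference of -0.43 and a standard error of 0.27. Within the same-numbered pairs the difference was -0.40 and -0.46, while the gap from replicate 1 to replicate 2 was -0.51 in the parental line and -0.57 in 320-IWR. The gap between the replicates of a line was thus larger than the difference between the lines, and it ran the same way in both lines. The probe set 241428_x_at read 91.5 and 95.5 in COLO-320DM cells and 88.6 and 96.8 in 320-IWR cells, a log2 difference of -0.01. By the naming of this array, the suffix _x_at marks probe sets whose probes can also match other transcripts. The dimmest, 238173_at, read 31.9 and 30.4 in COLO-320DM cells and 35.2 and 37.4 in 320-IWR cells. It was the TCEA probe set in which both 320-IWR arrays lay above both COLO-320DM arrays, by a log2 difference of 0.22 (standard error 0.12).

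**Figure D1:**
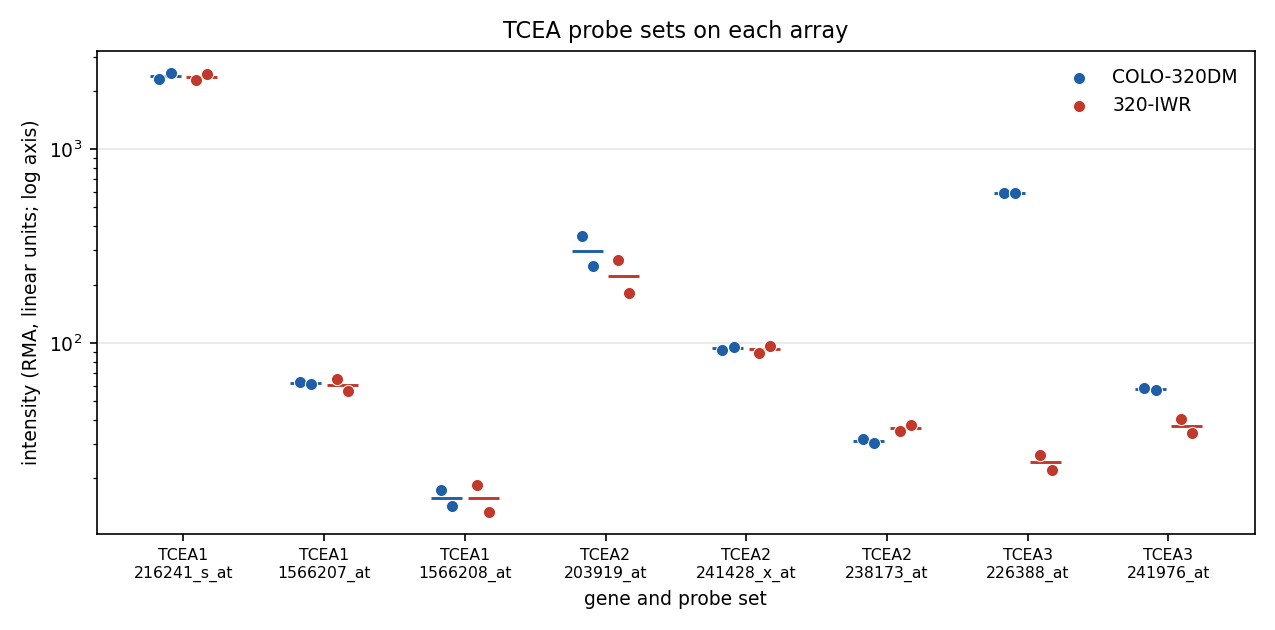
Intensity of the 8 TCEA probe sets on each of the 4 arrays (RMA, linear units, log axis), with COLO-320DM in blue, 320-IWR in red, 1 point per array (replicate 1 left, replicate 2 right) and a bar at the mean of the log2 values. The TCEA3 probe set 226388_at stands at 597 in COLO-320DM and at 22.1 and 26.5 in 320-IWR, while the lines overlap in all TCEA1 probe sets.

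In the order of their log2 differences, the brightest probe sets stood at -4.63 for TCEA3, -0.43 for TCEA2 and -0.02 for TCEA1. TCEA2 and TCEA1, neighbours in this order, both had overlapping lines, and the difference between them was not tested. Calls required a limma p of less than 0.05 after Benjamini-Hochberg adjustment over all probe sets, and a difference of at least 2-fold. By this rule 1 of the 8 TCEA probe sets, 226388_at, was lower in 320-IWR cells, and none was higher. As the values of 226388_at chose the family, its call restates them and is no test of them. This call was lost without 320-IWR replicate 1 or replicate 2, where limma had 0 calls over all probe sets (3756 and 3502 at an unadjusted p under 0.05). Among all probe sets 0.37% were called, 0.258% lower and 0.112% higher. The arrays of the lines did not overlap in 3 of the 8 TCEA probe sets, against 35.6% of all probe sets. As the family was chosen from this contrast, these shares describe it and support nothing further.

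**Figure D2:**
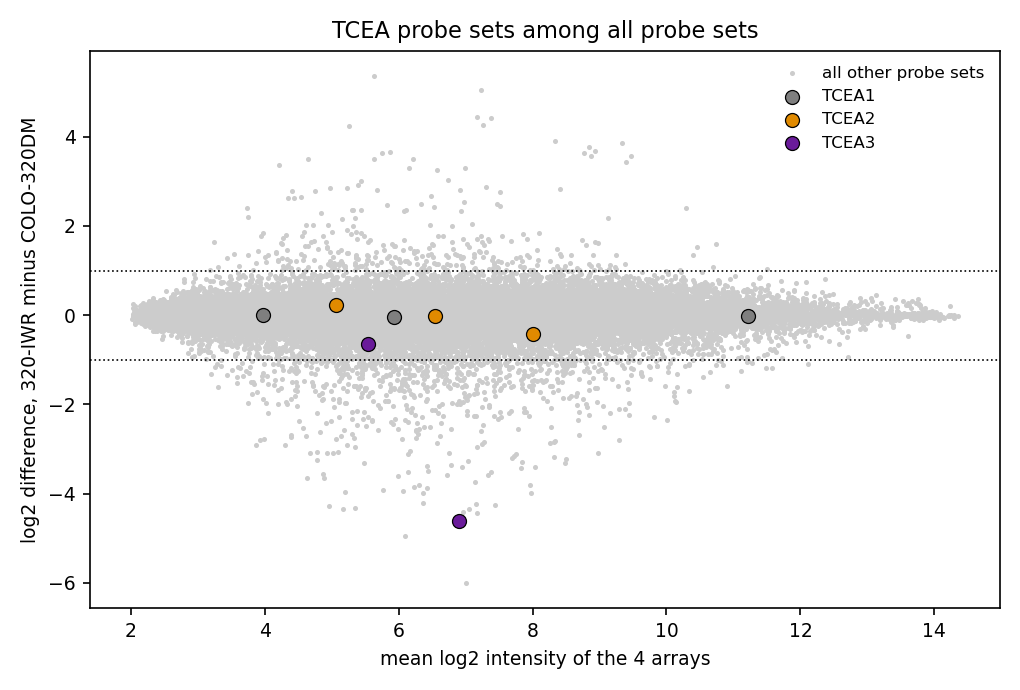
Log2 difference, 320-IWR minus COLO-320DM, of every probe set against its mean log2 intensity over the 4 arrays. Grey dots are all other probe sets, large dots are the TCEA probe sets, and dotted lines mark a 2-fold difference. One TCEA3 probe set lies at -4.63, and the other 7 TCEA probe sets lie between -0.65 and 0.22.

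The profile of TCEA3 over the arrays was compared with that of every other gene, each by its brightest probe set. The measure was the root mean square distance of the log2 values over the 4 arrays, after each gene was centred on its own mean. The closest genes were CTSZ (distance 0.19), PTPN20 (0.23), ACKR3 (0.24), CXCL11 (0.25) and GNE (0.32). CTSZ encodes the lysosomal protease cathepsin Z, and it read 660 and 688 in COLO-320DM cells and 28.8 and 33.1 in 320-IWR cells. GNE encodes the key enzyme of sialic acid synthesis and read 331 and 325 in COLO-320DM cells and 23.2 and 18.7 in 320-IWR cells. TCEA1 and TCEA2 had distances of 2.31 and 2.11, beside a median of 2.33 over all genes. With 2 arrays of each line this distance is set mainly by the size of the difference between the lines, and it is given as a description.

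The genes that lie beside TCEA3 did not share its large difference. In the gene order of GRCh38.p14, the 5 measured genes on each side of TCEA3 on chromosome 1 had log2 differences between -0.63 and 0.46, with a median of -0.03. Limma called 0 of these 10 genes, and 1 had an unadjusted p under 0.05, against 0.592% of all genes called. That gene was the long noncoding RNA gene LINC01355, which read 59.8 and 47.2 in COLO-320DM cells and 32.4 and 36.2 in 320-IWR cells (log2 difference -0.63, adjusted p = 0.305). On one side the immediate neighbour ASAP3, which encodes a GTPase-activating protein for ARF proteins, read 86.0 and 72.3 in COLO-320DM cells and 67.9 and 50.5 in 320-IWR cells. Its log2 difference was -0.43 (limma adjusted p = 0.621). On the other side ZNF436-AS1, an antisense RNA gene, had a log2 difference of -0.05 with a standard error of 0.52, since its replicates differed widely. The neighbours of TCEA1 on chromosome 8 lay between -0.22 and 0.22, with 0 of 10 called and 0 at an unadjusted p under 0.05. The genes directly beside TCEA1 were RGS20 (log2 difference -0.03) and LYPLA1 (0.08). The neighbours of TCEA2 on chromosome 20 lay between -0.39 and 0.38, with 0 of 10 called and 1 at an unadjusted p under 0.05, C20orf204, a gene 2 places away (log2 difference 0.38). The genes directly beside TCEA2 were SOX18 (-0.04) and RGS19 (0.28).

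**Figure D3:**
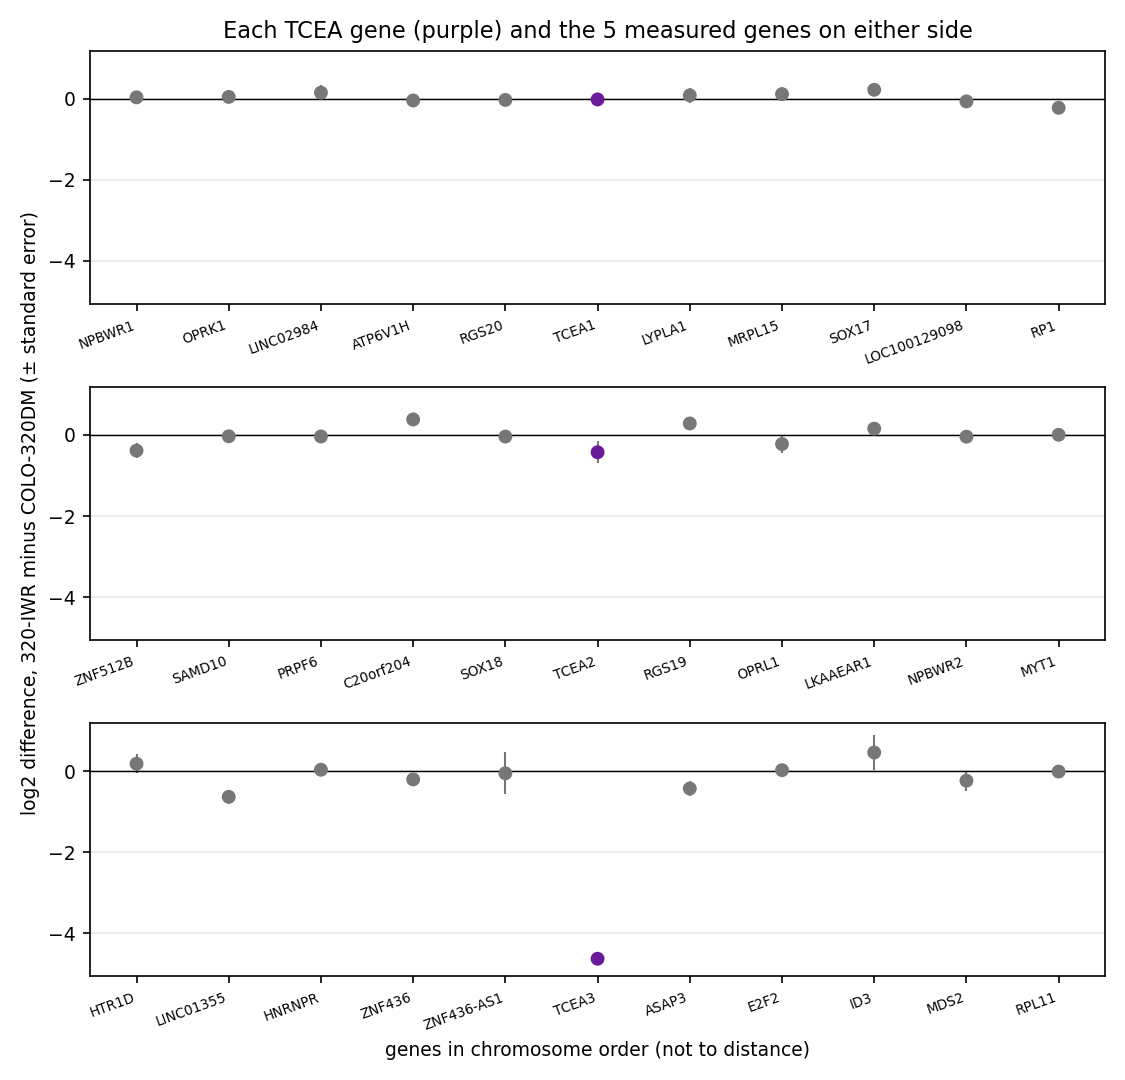
Log2 difference, 320-IWR minus COLO-320DM, of each TCEA gene (purple) and the 5 measured genes on either side (grey) in chromosome order, by brightest probe set, with standard errors from limma as bars. TCEA3 stands at -4.63 while its 10 neighbours lie between -0.63 and 0.46.

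The enzyme that TFIIS acts on and the other elongation factors were compared by their brightest probe sets, to set beside the TCEA genes. Of 59 measured genes in 5 lists of polymerase and elongation genes, none passed in limma (0 calls), while 8 reached an unadjusted p under 0.05. Over all 19775 genes 0.592% were called and 12.3% reached an unadjusted p under 0.05. The pooled counts of calls and of unadjusted p-values were thus near the background. Both 320-IWR arrays lay above both COLO-320DM arrays in 5 of 12 polymerase II subunits and 1 of 2 cleavage subunits. The same held for 11 of 26 processive elongation factors, 3 of 14 pausing factors and 2 of 5 stalled polymerase factors. Over all genes it held for 4162 of 19775. The reverse was seen in 1 polymerase II subunit and 2 processive elongation factors, and in 3468 of all genes. The median log2 difference of the 59 genes was 0.11, against 0.02 over all genes, and 53 of them lay within 0.5 of 0. A lower mean in 320-IWR cells was seen in 18 of the 59, against 45.8% of all genes. Of the 12 RNA polymerase II subunits, 4 (33.3%) reached an unadjusted p under 0.05 in limma, and 10 were higher and 2 lower. Whether these subunits differed as a group was not tested. Among them the highest value was that of POLR2I, a zinc ribbon subunit related to TFIIS. POLR2I read 1348 and 1360 in COLO-320DM cells and 2336 and 2292 in 320-IWR cells (log2 difference 0.77, adjusted p = 0.116). The lowest was POLR2C at -0.29. POLR1H and POLR3K, the related cleavage subunits of polymerases I and III, had log2 differences of -0.03 and 0.23.

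Of 26 factors of processive elongation, the highest was ELL2, a subunit of the super elongation complex. Its intensities were 50.8 and 53.3 in COLO-320DM cells and 120 and 180 in 320-IWR cells (2.82-fold higher, adjusted p = 0.116). The lines did not overlap in ELL2, but it did not pass the test. The lowest was AFF1, a scaffold of the same complex, at -0.20. The 14 factors of promoter pausing and its release spanned only -0.06 (CDK13) to 0.31 (CCNK). Of 5 factors for stalled polymerase, ELOF1 was highest at 0.70 (adjusted p = 0.208) and UVSSA lowest at -0.11.

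A list of 10 genes for proteins that share a domain with TFIIS held no gene with a difference like that of TCEA3. Limma called 0 of them (1 at an unadjusted p under 0.05), and their median log2 difference was 0.02. TCEANC, which carries the N-terminal and central domains of TFIIS, read 32.8 and 47.4 in COLO-320DM cells and 21.7 and 24.4 in 320-IWR cells. Its log2 difference of -0.78 was the lowest of the list (adjusted p = 0.328). MED26, the Mediator subunit with a TFIIS N-terminal domain, was highest at 0.56 (adjusted p = 0.526).

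The TCEA-like genes, TCEAL, are named for their resemblance to TFIIS, and they lie on the X chromosome together with the BEX genes. All 12 measured TCEAL and BEX genes had a lower mean in 320-IWR cells, where 45.8% of all genes did. In 10 of the 12 both 320-IWR arrays lay below both COLO-320DM arrays, against 17.5% of all genes. Several of the 12 were dim, and their distance above background is unknown. On no array did TCEAL7 read above 5.99, TCEAL2 above 9.16 or BEX1 above 16.3. BEX4 read 24.3 and 17.0 in COLO-320DM cells and 8.52 and 8.58 in 320-IWR cells. TCEAL8 fell and was the gene of this list that passed the test, where 0.399% of all genes fell, while 6 had an unadjusted p under 0.05. TCEAL8 read 699 and 379 in COLO-320DM cells and 42.8 and 34.7 in 320-IWR cells (log2 difference -3.74, standard error 0.32, adjusted p = 0.0385). Its call was lost without 320-IWR replicate 1 or replicate 2, when limma called no probe set at all, and with 16 added to each intensity (adjusted p = 0.116). TCEAL9 read 1692 and 1140 in COLO-320DM cells and 388 and 266 in 320-IWR cells (log2 difference -2.11, adjusted p = 0.093). BEX2 and BEX4 had log2 differences of -1.68 and -1.25 (adjusted p = 0.237 and 0.133). The median of the list was -0.49, and it was -1.12 over the fewer genes that remained after dim probe sets were left out. TCEAL8 is among the genes the study lists as lower in 320-IWR cells, which was known when the list was written, so the list is not independent evidence of its direction.

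Genes tied to TCEA3 in other settings were measured as well. In mouse embryonic stem cells TCEA3 has been linked to the LEFTY-NODAL axis, a branch of TGF-β signaling. Limma called 0 of the 12 measured genes of this axis (2 at an unadjusted p under 0.05), and the median log2 difference was -0.02. This median depended on the processing. It was -0.31 over the fewer genes that remained after dim probe sets were left out, and -0.11 when each gene's probe sets were averaged. Both 320-IWR arrays lay below both COLO-320DM arrays in 5 of the 12, against 17.5% of all genes. The reverse was seen in 1 gene of the axis. LEFTY1 and NODAL had log2 differences of -0.01 each, and the receptor gene ACVR1C had the lowest value of -0.75 (adjusted p = 0.21). The highest value was 0.22 for the receptor gene ACVR2A. Limma called 0 of the 16 measured heart and skeletal muscle genes (2 at an unadjusted p under 0.05), and the values ran from -0.43 (TTN) to 0.58 (MYH3). Several of the muscle genes were dim too, and on no array did MYF5 read above 9.83 or CKM above 19.7. With 0.592% of all genes called, 0 calls in lists of this size is what the background share gives.

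**Figure D4:**
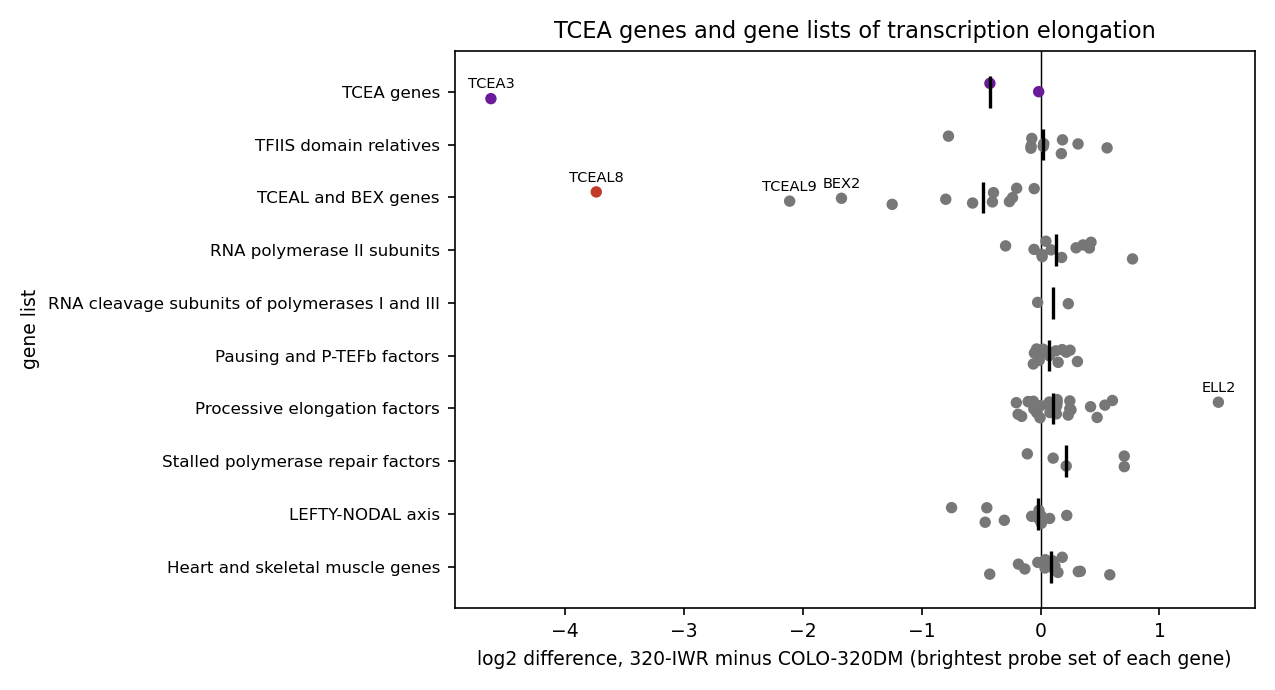
Log2 difference, 320-IWR minus COLO-320DM, of the TCEA genes (purple) and of each measured gene of 9 lists, by brightest probe set, with a black bar at each median. Grey genes did not pass the test, TCEAL8 (red) passed it, and names are given beyond 1.4 in either direction. TCEA3 lies at -4.63 and all 12 TCEAL and BEX genes lie below 0.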

How the data were processed

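The 4 arrays, 2 of each cell line, were mapped to their line by the labels. The authors deposited probe set intensities on a linear scale, made with RMA per the labels, without a version, and the study's methods name GeneSpring GX. Log2 was taken with a floor of 1, which no value reached. After removal of 62 controls from 54675 probe sets, the remaining 54613 were tested with limma 3.58.1 in R 4.3.3 (lmFit and eBayes, cell line as the only term). Of these, 41091 have 1 symbol, 1801 several and 11721 none, and no probe set with several symbols names a TCEA gene. The brightest probe set stood for each of 19775 genes in 13 gene lists, and 19720 genes had a position in the RefSeq table of GRCh38.p14.

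The members, lists and alternatives were chosen with earlier results of these data known. Named are all TCEA probe sets, up to 4 called genes of a list or else its highest and lowest, called and immediate neighbours, and the 5 genes most like TCEA3. Other genes were named after their values were seen (LINC01355, C20orf204, TCEAL2, TCEAL7, TCEAL9, BEX1, BEX2, BEX4, LEFTY1, NODAL, MYF5, CKM, and EPCAM, CDH1, CDX2 and ENO2 among the cell type markers). The number of arrays limits the precision. The procedure was tested on simulated data with independent errors, which lack the replicate gaps that the lines share here.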

Additional observations from a re-analysis of the deposited data

How the results depend on the processing

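In all 10 alternatives that apply to it, the TCEA3 probe set 226388_at was lower in 320-IWR cells, but several could not change its difference. The replicate block, the filter on dim probe sets and a trended prior in limma leave it as it is. Leaving out 1 COLO-320DM array does so too, since both arrays gave the same value. The log2 difference of 226388_at lay between -4.76 and -4.49 when single arrays were left out. It was -3.93 (15.2-fold) with 16 added to each intensity, which shrinks the differences of dim values. The TCEA3 probe set 241976_at stayed between -0.77 and -0.48, and the TCEA2 probe set 203919_at between -0.71 and -0.14, in all alternatives that kept them. The other TCEA2 probe set 238173_at stayed above 0, while the 3 TCEA1 probe sets and 241428_x_at of TCEA2 took both signs. The filter on dim probe sets left out 241976_at, 238173_at, 1566207_at and 1566208_at. The number of called probe sets, 202, was 576 with the replicate number as a block, 111 with the addition of 16 and 43 at an adjusted p under 0.01. Without single arrays it was between 0 and 63, and the 0 of limma came without 320-IWR replicate 1 or replicate 2, where 3756 and 3502 probe sets had an unadjusted p under 0.05. Of the TCEAL and BEX genes, 2 were called with the replicate block (TCEAL8 and TCEAL9, limma adjusted p = 0.0226 and 0.0183), 0 with the addition of 16, 0 at an adjusted p under 0.01 and between 0 and 1 without single arrays. Their median was -1.12 after the filter on dim probe sets, which left fewer of these genes. The cause of these changes was not tested. The replicate gaps of the lines correlated (Pearson's r = 0.66 over 54613 probe sets). Over the 21972 probe sets with a mean log2 intensity of at least 6, Pearson's r was 0.81. Same-numbered arrays thus varied together, which the main fit does not take into account. There are only 2 pairs, the labels give them no more than a shared number, and the source of this variation was not tested. No neighbour of a TCEA gene and no gene of the other lists of elongation, muscle or LEFTY-NODAL genes was called under any alternative run.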
